A study of Homo sapiens with 8 samples.

Results

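Adding JQ1 to palbociclib was examined in SUM159 cells by comparing the single-cell RNA library selected in both drugs with the library selected in palbociclib alone. The members were all cells that the deposited annotation assigned to either library, 1024 with JQ1 and palbociclib and 693 with palbociclib, of 5738 cells in 8 libraries. SUM159 is an established human triple-negative breast cancer line, and all cells carried a lentiviral library of DNA barcodes. JQ1 was given at 100 nM, palbociclib at 160 nM and paclitaxel, used in other libraries, at 0.6 nM, for up to 18 passages. The palbociclib experiment comprised 3 libraries, palbociclib, JQ1 alone (called JQ1-B here) and JQ1 with palbociclib, and had no vehicle library. The other 5 libraries were untreated cells before selection and, from the paclitaxel experiment, DMSO, paclitaxel, JQ1 alone (JQ1-A) and JQ1 with paclitaxel. The study pooled the cultures of each treatment ahead of encapsulation, and 1 of the cultures in JQ1 and palbociclib died out, which left 2. Each side of the comparison was therefore 1 library, with no replicate check and no test between them.

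BET proteins bind acetylated histones at enhancers and promoters and recruit the elongation factor P-TEFb, and JQ1 displaces them from chromatin. Genes driven by the transcription factor NF-kB, among them cytokines and chemokines, are known to depend on BET proteins. Palbociclib inhibits CDK4 and CDK6, the cyclin D kinases that phosphorylate the retinoblastoma protein at the entry into S phase.

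The palbociclib library held 16553292 UMIs (unique molecular identifiers, 1 for each captured transcript) and the combination library 24240835, with medians of 22495 and 22230 UMIs per cell. All 8 libraries ranged from 10621159 to 24240835 UMIs. The cell line label was checked against marker genes. VIM, a filament protein of mesenchymal cells, was at 3279 UMIs per 1000000 UMIs of the library (CPM) in the combination and 3378 CPM in palbociclib, and the blood cell marker PTPRC had 0 UMIs in both. EPCAM, an epithelial marker, had 1 and 2 UMIs. The median share of mitochondrial UMIs per cell was 7.18% in the combination and 5.58% in palbociclib. One cell barcode sequence occurred in both libraries.

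Genes were compared by the ratio of their CPM in the combination to their CPM in palbociclib, and the exact 95% interval given with a ratio covers counting error only. The 7145 genes compared reached 10 CPM in at least 1 of the 2 libraries, and 99 of them were at least 2-fold higher in the combination (1.39%) and 267 at least 2-fold lower (3.74%). The median log2 ratio was -0.04, and the quartiles were -0.31 and 0.22. Trimmed-mean (TMM) scaling raised the median log2 ratio by 0.12 and changed this split to 140 higher and 212 lower. Other pairs of libraries gave a scale for these counts. Between the libraries JQ1-A and JQ1-B, both from cells in JQ1 alone, 13 of 6553 genes were 2-fold apart in either direction (0.198%). DMSO and pre-treatment cells, which had no drug but differed in passages, were apart in 57 of 6953 (0.82%). JQ1 without palbociclib had 718 of 7064 genes past 2-fold against DMSO (10.2%), and JQ1 added to paclitaxel had 1364 of 6997 against paclitaxel (19.5%). Of these, 621 and 1105 were lower with JQ1, and the median log2 ratios were -0.31 and -0.37 without TMM scaling. These pairs thus differ from the palbociclib pair in the centre of their ratios as well as in the counts.

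**Figure D1:**
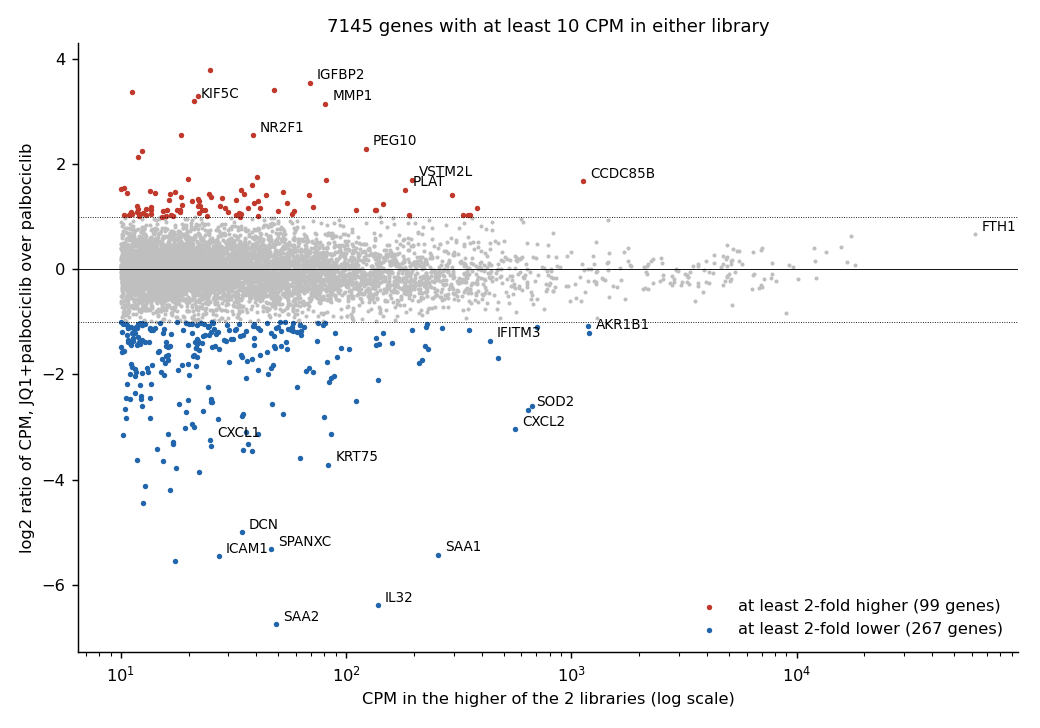
Each point is 1 of 7145 genes, with the CPM in the higher of the 2 libraries on the x axis (log scale) and the log2 ratio of JQ1+palbociclib to palbociclib on the y axis. Coloured points lie past 2-fold, 99 above and 267 below, and the named points at the bottom include IL32, SAA2 and ICAM1.

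NF-kB target genes were lower in the combination than in palbociclib across nearly the whole list. All 19 members that reached 10 CPM had ratios below 1 and 18 were at least 2-fold lower, with a median ratio of 0.29, against 3.74% of all genes past 2-fold and a median log2 ratio of -0.04. Their summed level was 2937 CPM in palbociclib and 557 CPM in the combination. In the other libraries the sum was 2601 CPM before treatment, 2494 in DMSO, 659 in paclitaxel, 900 in JQ1-A, 580 in JQ1-B and 868 in JQ1 with paclitaxel. By this sum the paclitaxel library lay among the JQ1 libraries. IL8, SOD2 and CXCL2 held most of the palbociclib sum, and members differed. In 5 of the 19 genes every JQ1 library lay below every library without JQ1, paclitaxel included.

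IL32, a cytokine gene (chr16:3115298-3132193, hg19), was at 138 CPM in palbociclib and 1.65 CPM in the combination, a ratio of 0.0119 (0.00851 to 0.0163). Its level was 211 CPM before treatment, 132 in DMSO and 119 in paclitaxel, against 2.97 in JQ1-A, 4.88 in JQ1-B and 1.95 in JQ1 with paclitaxel. The 4 libraries without JQ1 and the 4 with JQ1 did not overlap. ICAM1, an adhesion molecule for leukocytes (chr19:10381769-10397291), was at 27.2 CPM in palbociclib and 0.619 in the combination. The other JQ1 libraries held 0.345 to 0.837 CPM of ICAM1 and the other libraries without JQ1 4.46 to 12.1, so palbociclib was the highest of all 8. CSF2, which encodes the growth factor GM-CSF, was at 17.0 and 1.73 CPM, and its groups did not overlap either.

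The chemokine genes CXCL2 and IL8, which attract neutrophils, separated less cleanly. CXCL2 was at 564 CPM in palbociclib and 68.5 in the combination, a ratio of 0.122 (0.115 to 0.128), while paclitaxel alone had 70.7 CPM. IL8 was at 669 and 111 CPM, against 862 and 867 before treatment and in DMSO but 80.1 in paclitaxel. For both genes the paclitaxel library fell inside or below the range of the JQ1 libraries. CXCL1, of the same family, had a ratio of 0.105 (24.8 and 2.60 CPM), and CXCL3 one of 0.295.

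Negative regulators of the pathway were lower as well. TNFAIP3, the ubiquitin-editing enzyme A20 that dampens NF-kB signalling, was at 85.8 CPM in palbociclib and 9.86 in the combination, and NFKBIA, the inhibitor that holds NF-kB in the cytoplasm, at 217 and 66.1 CPM. The palbociclib level of TNFAIP3 was above that of any other library (7.70 to 45.5 CPM). SOD2, the mitochondrial superoxide dismutase, followed the same order, with 645 CPM in palbociclib, 102 in the combination and 94.7 to 317 elsewhere. Among subunits of the factor itself, NFKB1 had a ratio of 0.439, NFKB2 of 0.372 and RELB of 0.496.

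The cytokines IL6 and LIF differed mainly in how high palbociclib stood. IL6 was at 211 CPM in palbociclib against 14.1 to 90.5 in the other 3 libraries without JQ1, and at 61.0 CPM in the combination, inside the 47.4 to 70.6 CPM of the other JQ1 libraries. LIF was at 26.2 CPM in palbociclib, 0.550 to 5.46 in the other libraries without JQ1, and 9.49 in the combination, the highest of the JQ1 libraries. Palbociclib was the highest of the libraries without JQ1 for 11 of the 19 members, against 28.3% of all genes compared. CCL20, a chemokine for lymphocytes and dendritic cells, was the only member not past 2-fold, at 39.7 and 29.7 CPM. In 5 of the 19 genes all 4 JQ1 libraries lay below all 4 others, a pattern shown by 23.4% of the 7145 genes.

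Sequences upstream of 4 NF-kB genes are shown because the list was searched for the kB motif, and these span its outcomes from 0 matches to several. They are the 250 bases before the annotated start in RefSeq (GRCh38.p14, a different build from the hg19 of the counts), 5′ to 3′ on the gene's strand. Capitals mark matches on either strand to GGG followed by any 5 bases and CC, and matches that overlap run together. Each strand was counted separately, so 1 stretch in capitals can hold several matches, and the counts are not numbers of sites. ICAM1 (chr19:10270870-10271119, + strand) had 2 matches, both in 1 stretch, and the lowest ratio of the 4. CXCL2 (chr4:74099196-74099445, - strand) had 3, and CCL20 (chr2:227813592-227813841, + strand), the member nearest to a ratio of 1, had 7. IL1B (chr2:112836780-112837029, - strand), the gene of interleukin 1 beta, had a ratio of 0.287 and no match in this window.
ICAM1: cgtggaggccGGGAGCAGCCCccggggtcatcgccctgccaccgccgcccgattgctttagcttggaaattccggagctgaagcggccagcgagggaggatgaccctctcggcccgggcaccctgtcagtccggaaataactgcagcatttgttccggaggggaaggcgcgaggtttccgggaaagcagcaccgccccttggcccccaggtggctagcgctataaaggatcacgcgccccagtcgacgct
CXCL2: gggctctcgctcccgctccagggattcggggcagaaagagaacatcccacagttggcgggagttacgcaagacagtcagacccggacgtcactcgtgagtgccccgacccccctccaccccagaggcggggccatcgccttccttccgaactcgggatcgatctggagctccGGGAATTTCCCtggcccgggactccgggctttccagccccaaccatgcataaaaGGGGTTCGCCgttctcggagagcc
CCL20: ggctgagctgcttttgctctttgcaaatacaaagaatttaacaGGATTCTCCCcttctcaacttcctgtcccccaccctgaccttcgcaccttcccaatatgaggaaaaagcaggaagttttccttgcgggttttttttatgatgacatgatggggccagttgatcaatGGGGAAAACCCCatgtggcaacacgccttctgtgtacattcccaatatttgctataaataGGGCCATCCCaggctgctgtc
IL1B: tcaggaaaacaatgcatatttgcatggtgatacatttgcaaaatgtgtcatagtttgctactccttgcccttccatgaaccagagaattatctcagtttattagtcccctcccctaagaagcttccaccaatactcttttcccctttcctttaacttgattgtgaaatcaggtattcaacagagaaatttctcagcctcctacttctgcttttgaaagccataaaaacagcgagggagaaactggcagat
The motif occurred in 23 of 24 promoter entries of 17 list members (95.8%) and in 54.4% of all 35116 promoter entries. LIF and RELB had no entry. The list was made of known NF-kB targets and some members, such as SOD2 and NFKB2, had several entries. The difference between these shares is therefore not a finding of these data and was not tested. A match is a description of the letters and not of a bound site.

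Acute-phase and complement genes, which liver and inflamed epithelium secrete, had 3 members above 10 CPM, and all were over 10-fold lower in the combination. SAA1 (chr11:18287807-18291524) was at 256.5 CPM in palbociclib and 5.94 in the combination, a ratio of 0.0232, and SAA2 (chr11:18260770-18270215) was at 48.9 and 0.454 CPM. These are near-identical neighbours, so the split of UMIs between them is uncertain. SAA1 in the other libraries ranged from 2.90 to 65.5 CPM, and JQ1 with paclitaxel, at 59.8 CPM, was close to the pre-treatment level. C3, the central complement component, had a ratio of 0.0968. Palbociclib was the highest of the libraries without JQ1 for all 3 genes, against 28.3% of all genes compared.

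Interferon-stimulated genes were mostly lower in the combination, 13 of 14 with ratios below 1 (median ratio 0.381). Of the 14, 10 were at least 2-fold lower, against 3.74% of all genes. ISG15, a ubiquitin-like modifier induced by interferon, was at 139 CPM in palbociclib and 32.3 in the combination. The other 3 libraries without JQ1 held 93.0 to 166 CPM of ISG15 and the other 3 with JQ1 31.9 to 41.7. IFITM3, which blocks viral entry, was at 434 and 169 CPM, and its relative IFITM2 at 110 and 19.5 CPM. Both groups of 4 libraries were separate for 9 of the 14 genes, against 23.4% of all genes.

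The genes of MHC class I antigen presentation lay nearer to 1, with all 10 ratios below 1 and a median ratio of 0.565. Past 2-fold were 3 members, against 3.74% of all genes. HLA-B, a heavy chain, was at 160 CPM in palbociclib and 60.8 in the combination, against 108 to 135 and 56.4 to 84.0 CPM in the other libraries without and with JQ1. PSMB8, a catalytic subunit of the immunoproteasome, was at 103 and 35.9 CPM, and ERAP2, which trims peptides for loading, at 22.3 and 7.67. B2M, the invariant light chain, was nearest to 1, with a ratio of 0.884. In 8 of the 10 genes the 2 groups of 4 libraries did not overlap, against 23.4% of all genes with JQ1 lower.

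Immediate early genes, the transcription factors that serum and MAP kinase signalling switch on within minutes, were also lower in the combination. Of 21 members 7 were at least 2-fold lower, none was 2-fold higher, and the median ratio was 0.575. Of all genes 3.74% were 2-fold lower and 1.39% higher. FOS was at 90.9 CPM in palbociclib and 28.5 in the combination, EGR1 at 228 and 130, and JUNB at 195 and 87.9. For FOS the other libraries without JQ1 ranged from 9.90 to 60.4 CPM and those with JQ1 from 24.9 to 65.1, so that the groups overlapped. No member was lower in all 4 JQ1 libraries than in the 4 others, against 23.4% of all genes. Palbociclib was the highest of the libraries without JQ1 for 14 of the 21, against 28.3% of all genes. MYC, which is in this list and the G1-S list, was at 503 and 569 CPM. JUND had a ratio of 1.43 and FOSL1 of 1.61.

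**Figure D2:**
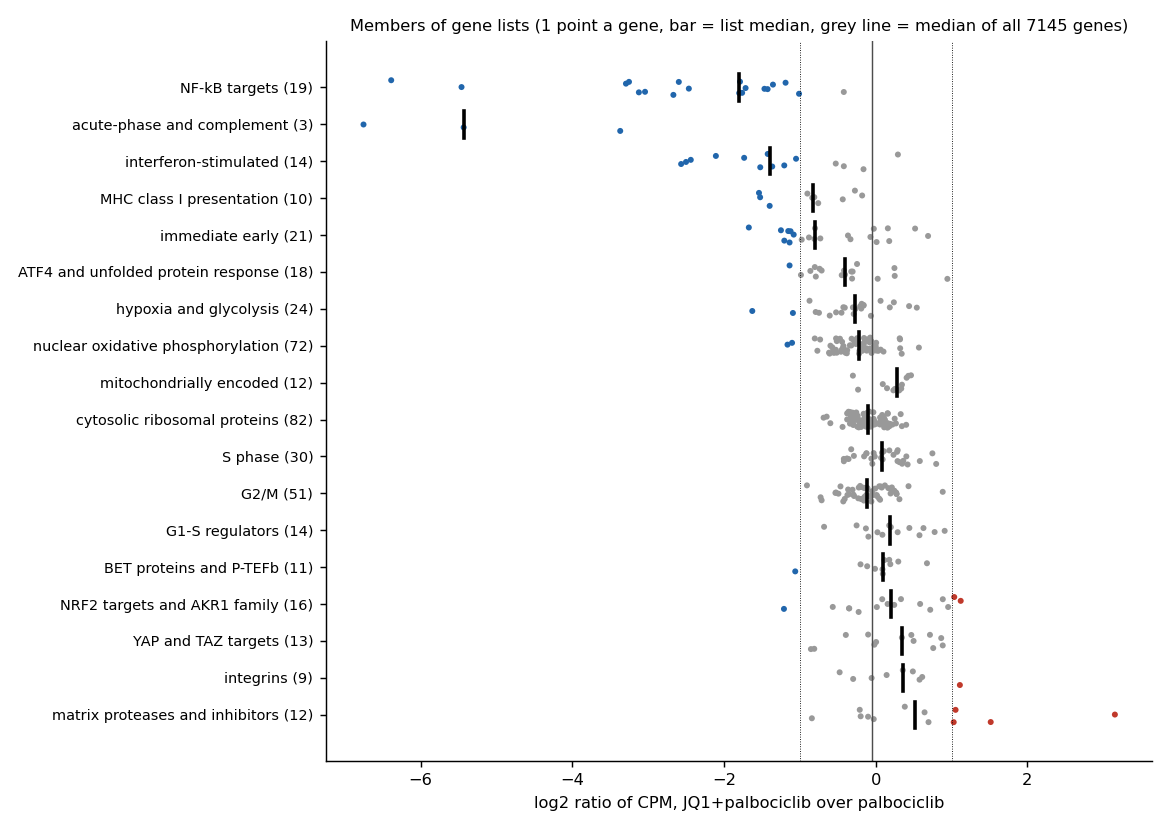
Each row is a gene list and each point a member with at least 10 CPM, placed on the x axis by its log2 ratio of JQ1+palbociclib to palbociclib, with a bar at the list median. As ratios, the medians run from 0.0232 for the acute-phase genes and 0.287 for NF-kB targets to 1.43 for matrix proteases and their inhibitors.

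The largest ratios above 1 belonged to genes of varied function. IGFBP2, an insulin-like growth factor binding protein (chr2:217497551-217529159), was at 69.0 CPM in the combination and 5.92 in palbociclib, a ratio of 11.7 (9.50 to 14.4). Its level was 18.5 to 40.2 CPM in the other JQ1 libraries and 0.709 to 6.21 in the other libraries without JQ1, so the groups did not overlap. NR2F1, an orphan nuclear receptor (chr5:92918928-92930317), was at 38.5 and 6.58 CPM, with 21.4 to 32.0 in the other JQ1 libraries and 1.63 to 3.39 in the others without JQ1. KIF5C, a kinesin motor subunit, had a ratio of 9.16, CADM1, a cell adhesion molecule, of 9.82, and PEG10, a retrotransposon-derived gene, of 4.91. CCDC85B was the most abundant of the 14 genes with the largest ratios, at 1126 CPM in the combination and 352 in palbociclib. VSTM2L was at 196 and 60.4 CPM. Both Z83851.1 (ratio 13.8) and RP11-669N7.2 (10.7) carry clone-based names.

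Matrix proteases and their inhibitors held 4 of the 99 genes past 2-fold among 12 members, including MMP1, PLAT and HTRA1, against 1.39% of all genes. The count was 3 with equal numbers of cells, without the cells of most UMIs or in S-phase cells, and 2 in G2/M cells. MMP1, the interstitial collagenase (chr11:102660132-102668891), was at 80.6 CPM in the combination and 9.06 in palbociclib, a ratio of 8.90 (7.54 to 10.6). MMP1 did not separate by JQ1, with 10.4 to 37.6 CPM in the other libraries without JQ1 and 5.23 to 31.0 in the other libraries with it. PLAT, the tissue plasminogen activator, was at 183 and 63.9 CPM. HTRA1, a secreted serine protease, was at 57.5 CPM in the combination and 27.7 in palbociclib, where it already exceeded the 6.87 to 12.6 CPM of the other libraries without JQ1. MMP2, a gelatinase, had the lowest ratio of the list, 0.558. The combination was the highest of the 4 JQ1 libraries for 8 of the 12 genes, against 42.5% of all genes compared.

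Among genes that were lower in the combination outside the inflammatory lists, SPANXC, a cancer-testis gene, was at 46.3 CPM in palbociclib and 1.16 in the combination. Its family has near-identical copies, so its counts are uncertain. IL13RA2, a decoy receptor for interleukin 13, was at 62.6 and 5.24 CPM, DCN, the proteoglycan decorin, at 34.4 and 1.07, and DIO2, which activates thyroid hormone, at 22.2 and 1.53. KRT75, a keratin, had a ratio of 0.0761, and TNNT1, a troponin of slow muscle, was at 36.5 and 3.67 CPM. Of 22 collagens, laminins and other matrix genes 5 were 2-fold lower and 1 higher, FBN1, against 3.74% and 1.39% of all genes. COL8A1 (79.7 and 11.4 CPM) and LAMB3 (24.5 and 5.20 CPM) were among the lower. The list had no common direction, with 10 ratios above 1, 12 below and a median of 0.971. Under TMM scaling 4 members were 2-fold lower and 2 higher. In the test of JQ1 without palbociclib, described below, 15 of the 22 rose and 3 fell, against 23.9% and 21.8% of all genes. Among 9 integrins only ITGB4 was past 2-fold, at 15.4 CPM in the combination and 7.13 in palbociclib.

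None of 14 G1-S regulators, 30 S-phase genes and 51 G2/M genes passed 2-fold, except that CCND1, the cyclin that activates CDK4 and CDK6, did so under TMM scaling (2.03). CCND1 was at 443 CPM in the combination and 236 in palbociclib, a ratio of 1.88 (1.81 to 1.95), and 204 to 297 CPM in the other JQ1 libraries. Paclitaxel alone held 349 CPM of CCND1, above 3 of the 4 JQ1 libraries. E2F1, which drives S-phase genes, had a ratio of 1.55, and CCNE1, the cyclin partner of CDK2, of 1.36. Ratios were below 1 for 4 of the 14 G1-S regulators, the lowest for RBL2 at 0.624. In the fit without palbociclib, described below, 2 of the 14 rose with JQ1 and 3 fell, against 23.9% and 21.8% of all genes. CDKN1A, the CDK inhibitor p21, was at 38.7 and 32.3 CPM. Median ratios were 1.14, 1.06 and 0.928 for the 3 lists, and the number of G2/M genes above 1 went from 19 to 26 of 51 under TMM scaling.

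Cells called S phase from these genes made up 253 of 972 in the combination, 26.0% (exact 95% interval 23.3 to 28.9), and 103 of 662 in palbociclib, 15.6% (12.9 to 18.5). Cells called G1 were 53.5% (50.3 to 56.7) and 63.0% (59.2 to 66.7), and G2/M cells 20.5% and 21.5%. These intervals cover the sampling of cells from 1 library a side and not differences between cultures. Phases were called on cells that met the study's filter, thinned to 10000 UMIs each and scored with all libraries together. The G1 share was 44.7 to 50.6% in the other JQ1 libraries, and 22.1% before treatment, 24.9% in DMSO and 3.96% in paclitaxel. Scored within each library alone, S-phase cells were 30.5% (27.6 to 33.5) and 25.7% (22.4 to 29.2), whose intervals overlap, and those values depend on a centre that is set in each library.

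Genes of the BET and P-TEFb machinery, the complexes that JQ1 acts on, stayed within 2-fold apart from ELL2, an elongation factor, at 37.8 CPM in the combination and 78.9 in palbociclib. Under TMM scaling ELL2 too was within 2-fold, with a ratio of 0.519. ELL2 was at 42.4 to 46.3 CPM in the other libraries without JQ1 and 37.4 to 43.4 in those with it. HEXIM1, which holds P-TEFb inactive, was at 29.0 and 18.1 CPM, with 30.1 to 31.7 in the other JQ1 libraries and 16.1 to 17.5 in the others. BRD2, a BET protein, had a ratio of 1.23. FTH1, the ferritin heavy chain, was at 61843 CPM in the combination and 39012 in palbociclib, both above the 17785 to 22343 CPM of the other libraries without JQ1. FTH1 also rose with JQ1 where palbociclib was absent, by 1.43 to 1.52 on the log2 scale over 10 alternative fits. Among NRF2 targets TXNRD1, a thioredoxin reductase, was at 348 and 170 CPM, GCLC, which starts glutathione synthesis, at 17.7 and 8.16, and AKR1B1, aldose reductase, at 517 and 1196.

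Of 12 mitochondrially encoded genes 10 had ratios above 1, with a median of 1.22, whereas 60 of 72 nuclear genes of oxidative phosphorylation were below 1, with a median of 0.861 (51 of 72 under TMM scaling). MT-CO2, a subunit of cytochrome oxidase, was at 15723 CPM in the combination and 11662 in palbociclib. The higher mitochondrial share of UMIs in the combination accompanies this difference, and its part in other ratios was measured by leaving these genes out of the totals, which gave 108 genes higher and 269 lower. Ribosomal protein genes had 27 of 82 ratios above 1, or 43 under TMM scaling, so no direction is given for them.

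Differences in the sums could lie in most cells or in a few. In cells thinned to 10000 UMIs, 662 with palbociclib and 972 with both drugs, the median number of NF-kB list UMIs per cell was 28 and 4. Across all pairs of 1 cell from each library, the combination cell was the higher in 3.61%, and 0.31% of combination cells exceeded the palbociclib median. Here and below, tied pairs are split equally between the libraries, so a share of pairs includes part of the ties. The share of such pairs was 2.50% between G1 cells, 2.63% between S cells and 5.93% between G2/M cells. Median counts in the other libraries were 22 before treatment, 23 in DMSO, 5 in paclitaxel, 5 in JQ1-A, 4 in JQ1-B and 6 in JQ1 with paclitaxel. Interferon-stimulated genes gave medians of 14 and 6 UMIs and 12.1% of pairs, MHC class I genes 22 and 16 with 32.4%, and immediate early genes 33 and 22 with 20.4%.

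**Figure D3:**
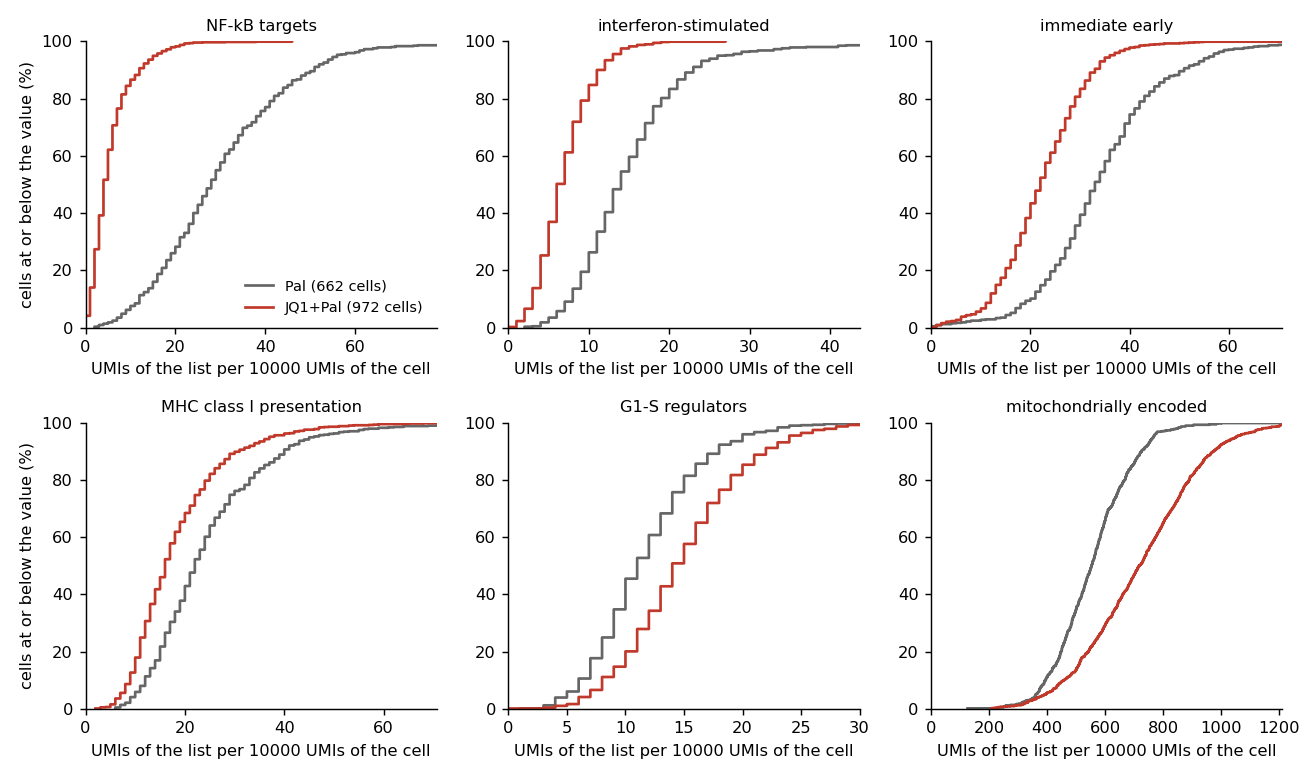
Cumulative share of thinned cells (y axis, percent) at or below each number of list UMIs per 10000 UMIs of the cell (x axis), for 6 gene lists, in palbociclib (662 cells) and JQ1+palbociclib (972 cells). The NF-kB list has medians of 28 and 4 and little overlap, whereas the G1-S list (11 and 14) overlaps broadly.

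Single genes showed both patterns. IL32 had a UMI in 430 of 662 palbociclib cells (65.0%) and in 14 of 972 combination cells (1.44%), the lowest share of the 8 libraries. SOD2 was detected in 97.0% and 60.7% of cells and CXCL2 in 91.5% and 34.0%, so most palbociclib cells held both. SAA2 was found in 102 palbociclib cells (15.4%) and in 0 of 972 combination cells, which allows a share of cells with a UMI of up to 0.309% at the thinned depth and sets no limit on expression. Before thinning the combination library held 11 UMIs of SAA2. The top 10% of palbociclib cells held 62.9% of the UMIs of the 3 acute-phase genes. Cells that carry free RNA cannot be told from cells with low expression here, since no cell type lacking these genes was in the libraries.

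Among the genes that were higher in the combination, CCDC85B had a UMI in 99.9% of combination cells and 91.7% of palbociclib cells, and the combination cell was the higher in 92.7% of pairs. IGFBP2 was detected in 43.4% and 5.89% of cells, VSTM2L in 81.0% and 40.5%, and CCND1 in 96.9% and 85.5%. MMP1 was confined more narrowly, to 23.3% of combination cells and 3.63% of palbociclib cells, and the top 10% of combination cells held 78.0% of its UMIs. FTH1 was present in every cell of both libraries, with medians of 613 and 384.5 UMIs per 10000.

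JQ1 was tested in the 6 libraries that had no palbociclib, 3 with JQ1 against 3 without and with paclitaxel as a covariate, which share no library with the comparison above. With edgeR's quasi-likelihood test at a Benjamini-Hochberg adjusted p of 0.05, 2169 of 9085 genes rose (23.9%) and 1976 fell (21.8%). Of the 97 tested genes that were 2-fold higher in the combination, 78 were among those that rose with JQ1 (80.4%, or 4.29% of the 1820 risen genes compared), 2 had fallen and 17 were not called. Of 258 genes that were 2-fold lower, 142 were among those that fell (55.0%, or 8.90% of 1595), 6 had risen and 110 were not called. Across 7131 genes, which are not independent replicates, the log2 ratio under palbociclib and the log2 fold change without it had r = 0.54 and rho = 0.49. The risen genes had a median log2 difference of 0.63 without palbociclib and 0.21 with it, and the fallen genes of -0.59 and -0.30. The values without palbociclib are TMM-scaled and those with it are not, and TMM scaling raised the pair's median log2 ratio by 0.12. The genes were also picked by the fit without palbociclib, which favours large values there, so these medians cannot be compared in size.

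**Figure D4:**
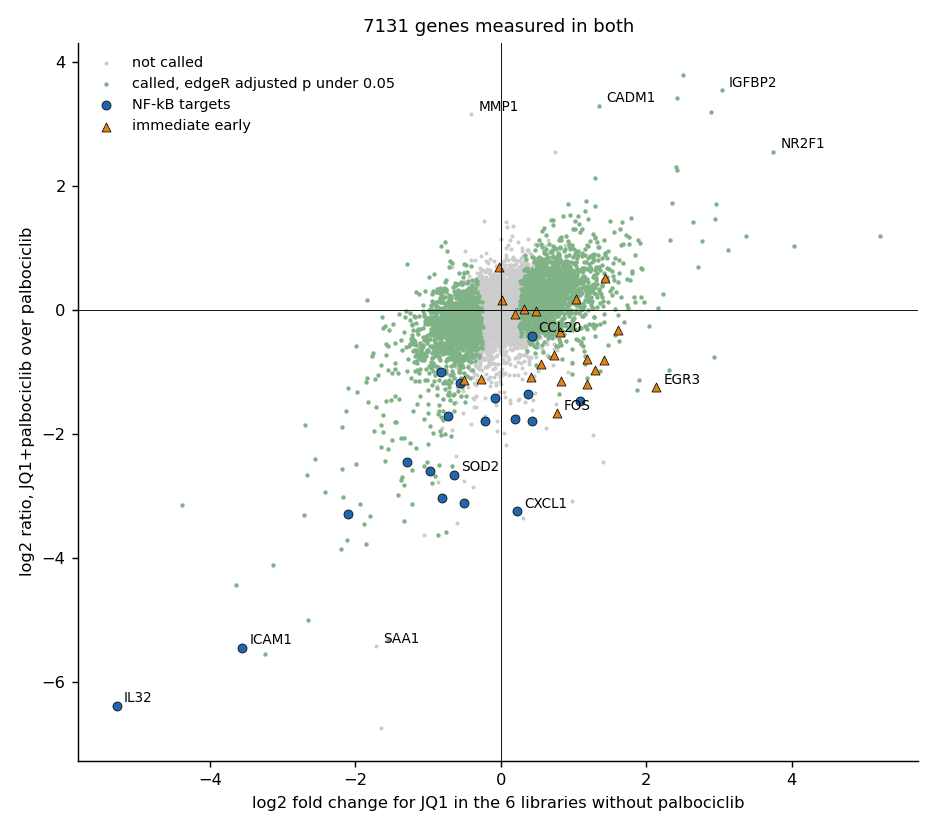
Each point is 1 of 7131 genes, with the log2 fold change of JQ1 in the 6 libraries without palbociclib on the x axis and the log2 ratio of JQ1+palbociclib to palbociclib on the y axis. IL32 lies low on both axes and NR2F1 high on both, and r over the genes is 0.54.

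IL32 fell with JQ1 in those 6 libraries by 5.28 on the log2 scale (SE 0.26, edgeR adjusted p = 5.85e-05), and VSTM2L rose by 2.95 (SE 0.11, adjusted p = 2.79e-05). Of 19 NF-kB targets 5 fell, IL32, ICAM1, CSF2, NFKB1 and RELB, a share near the 21.8% of all genes that fell, and none rose. Without the paclitaxel library, whose summed level was low for this list, the fit called 11 members lower, as it did without the library in JQ1 with paclitaxel. Without DMSO or either JQ1 library it called 3 lower, and without pre-treatment cells 2, and without JQ1-B it also called 1 higher. Of the 14 interferon-stimulated genes 8 fell and 2 rose, and of the 10 MHC class I genes 5 fell. Without pre-treatment cells or either JQ1 library 5 of the interferon genes fell, and without JQ1-A 2 of the MHC class I genes. Of 21 immediate early genes 7 rose without palbociclib, among them MYC by 1.04 and JUND by 1.44 on the log2 scale, and none fell, against 23.9% and 21.8% of all genes. Without the paclitaxel library or the library in JQ1 with paclitaxel, 7 rose and 2 fell, and the median log2 fold change of the list went from 0.77 to 0.23 and 0.24. Without DMSO or JQ1-B, 12 and 11 rose. Without pre-treatment cells or without JQ1-A 4 rose, and EGR1, EGR3 and ZFP36 were no longer called. S-phase genes included 17 of 30 that fell without palbociclib, against 21.8% of all genes. With palbociclib 17 of 30 had ratios above 1, or 21 under TMM scaling, which is a direction and not a call. Palbociclib alone was already the lowest of the libraries without JQ1 for 27 of the 30, against 47.7% of all genes compared.

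Whether the JQ1 difference itself depended on palbociclib was tested as an interaction over all 8 libraries, in which palbociclib and the combination each stand alone and are assumed to vary like the rest. No gene of 9288 passed an adjusted p of 0.05 in edgeR, 1606 had an unadjusted p under that value (757 higher and 849 lower), and DESeq2 called 55. The lack of edgeR calls does not show that the JQ1 difference was the same with and without palbociclib. Of 200 genes given a 4-fold interaction in simulated data, 94% were recovered, with 22 false calls among the unchanged genes. The simulated means held no effect of JQ1 or palbociclib by itself, so this share does not carry over to the data. In the data CSPG4 and AQP3 had interaction terms of -2.06 and -3.09 on the log2 scale, and neither was called. The smallest p for a lower term belonged to CSPG4, a membrane proteoglycan, at 4.41 CPM in the combination and 11.3 in palbociclib, whereas the other JQ1 libraries held 14.6 to 16.4 CPM and the others 9.63 to 11.6. AQP3, a water and glycerol channel, was at 15.9 and 39.1 CPM under palbociclib, 19.7 to 32.6 in the other JQ1 libraries and 7.16 to 11.8 in the others. Among the 5 smallest p for a higher term was that of BRIX1. BRIX1 fell with JQ1 without palbociclib and had a TMM-scaled ratio of 1.04 with it. In all, 8 genes were 2-fold apart under palbociclib in the direction opposite to their call without it. CSPG4, AQP3, EGR3, SEPP1, SREBF1 and TENC1 were lower in the combination, and UBASH3B and DNER higher.

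Over the 4 JQ1 libraries and the 4 without it, 59 of the 99 2-fold higher genes did not overlap (59.6%), against 5.86% of all genes compared. The combination was above the other 3 JQ1 libraries for 88 of these 99 genes (88.9%), against 42.5% of all genes. Of the 267 2-fold lower genes, 154 did not overlap (57.7%), against 23.4% of all genes. Palbociclib was above the other 3 libraries without JQ1 for 140 of the 267 (52.4%), against 28.3% of all genes. The combination was below the other 3 JQ1 libraries also for 140, against 26.7% of all genes. These shares rest in part on the ratio that defined the sets and are given as a description.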

How the data were processed

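Single-cell RNA was captured by the authors with 10x Genomics Chromium 3′ chemistry, version 2, aligned to hg19 and counted with Cell Ranger, per the submitters' processing notes and the study's methods. The deposited values are raw UMI counts for 18955 genes and 5738 cells, and a deposited annotation names the library of each cell. Counts were summed over all cells of a library and divided by its total to give CPM. Ratios between the 2 libraries carry exact (Clopper-Pearson) 95% intervals for counting error only, since amplified reads are collapsed by UMI and culture differences are not included. Genes needed at least 10 CPM in the higher library.

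JQ1 without palbociclib (6 libraries) and the interaction (8 libraries) were tested with edgeR 4.0.16 in R 4.3.3 (quasi-likelihood, TMM, genes with at least 5 CPM in at least 2 libraries, 3 residual degrees of freedom each). Each library pooled cultures, so p-values measure only the spread between libraries, which may be technical. DESeq2 1.42.0 was an alternative. In simulated data with 4-fold changes in 200 genes, the test of JQ1 without palbociclib recovered 100% with 18 false calls and the interaction 94% with 22. Apart from the term under test, each gene had the same mean share in every simulated library, unlike the data. Per-cell values used cells with at least 2000 genes and 1 to 15% mitochondrial UMIs (673 and 991), thinned to 10000 UMIs (11 and 19 shallower cells left out). Phases came from Seurat 5.3.0. No doublet caller was run, and leaving out cells above the 95th percentile of UMIs stood as an alternative. hg19 coordinates are from GENCODE 44 lifted to GRCh37, and promoters from RefSeq.

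Named genes were the 14 largest ratios each way with at least 20 CPM, the 4 farthest from 1 in each list (all of short lists), and the 5 smallest p each way of both fits. EGR1, ZFP36, SEPP1, TENC1, UBASH3B, DNER and other members named beyond this rule were chosen after their values were seen. The comparison and gene lists were chosen with earlier results of these data known. A few list members are not reported here.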

Additional observations from a re-analysis of the deposited data

How the results depend on the processing

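Ratios of 160 named genes were recomputed under 10 other choices of cells or scaling, and 1259 of 1600 values lay within the counting interval. Of 74 genes past 2-fold, 0 changed direction and 20 came under 2-fold in at least 1 choice. Of the other 86 genes, 8 crossed a ratio of 1 in at least 1 choice. In the NF-kB list 16 to 18 genes were at least 2-fold lower over these choices (9 past 4-fold). Counts of genes at least 2-fold higher were 160 in S-phase cells only and 59 with a 20 CPM minimum, and 447 and 12 at 1.5-fold and 4-fold. The matching counts of lower genes were 158 at 20 CPM, 445 at 5 CPM, 690 at 1.5-fold and 72 at 4-fold. For JQ1 without palbociclib, leaving out 1 library gave 1182 to 1959 genes higher and 1080 to 1899 lower. The lowest counts came without JQ1-A (1182 and 1080), and without pre-treatment cells 1422 rose. Of 350 named or listed genes called, 132 lost the call in at least 1 alternative and 0 changed sign. The interaction had 22 genes higher and 33 lower in DESeq2, 169 and 317 with no filter on low counts, and 1 lower without the paclitaxel libraries. Leaving out 1 library gave 0 to 1 lower, and a fit without either palbociclib library could not be made. Scored in each library by itself, G1, S and G2/M shares were 48.2%, 25.7% and 26.1% in palbociclib and 42.5%, 30.5% and 27.1% in the combination. With all UMIs, G2/M shares were 24.9% and 23.8%. The cause of these shifts was not tested. No paired analysis was possible because palbociclib and the combination are 1 library each and the labels give no replicate numbers that pair libraries.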

Other observations

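The log2 ratio of JQ1+palbociclib to palbociclib was also summarised by chromosome. Genes on the X chromosome had a median log2 ratio of -0.36 over 223 genes, with 20 at least 2-fold lower and 3 higher, and the median for JQ1 without palbociclib was -0.43. Chromosome 21 had a median of 0.30 over 76 genes, against 0.21 without palbociclib. Chromosome 2 had a median of 0.17 (471 genes, 17 at least 2-fold higher) and chromosome 9 of 0.18 (249 genes), against 0.06 and 0.05 without palbociclib. Chromosome 13 had a median of -0.22 (98 genes) and chromosome 12 of -0.17 (348 genes), against 0.05 and 0.06. IGFBP2 and KIF5C, with ratios of 11.7 and 9.16, lie on chromosome 2. Chromosomes 1 and 4 had medians of -0.16 (640 genes) and -0.20 (232 genes), against -0.03 and -0.13. The medians without palbociclib are TMM-scaled and those of the pair are not, and TMM scaling raised the pair's median by 0.12. Small differences between the 2 columns of medians therefore cannot be read as effects of palbociclib. No test was made of these medians. The study's karyotypes showed extra copies of nearly all chromosomes after selection in palbociclib and in both drugs, with further losses or gains of some. Its flow cytometry showed the largest increase of DNA content in the combination. Whether copy number bears on these medians was not tested.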
